A study of Mus musculus with 34 samples.

Results

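Hippocampal RNA from 5 Hdac1 cKO mice was compared directly with hippocampal RNA from 6 5XFAD mice, 11 of the 34 samples listed for the study. The members were chosen by their labels, and every gene in their FPKM tables entered the comparison. FPKM gives the sequenced fragments of a gene, scaled to its transcript length and to the fragments mapped in the library. Both groups carried the floxed allele Hdac1f/f. The Hdac1 cKO mice also carried Nestin-Cre, which removes Hdac1 from neurons and astrocytes, while microglia keep it. The 5XFAD mice carried no Cre by their label and expressed transgenes with mutated human APP, under the neuronal Thy1 promoter. The labels gave an age of 13 to 14 months for the Hdac1 cKO mice and 13 months for the 5XFAD mice, the study's aged mice were male, and each mouse gave 1 library. Hence each model served as the reference for the other, and a gene that differed could have moved in either. Control mice (Hdac1f/f, n = 4, 13 to 14 months) and compound mice (Hdac1 cKO crossed to 5XFAD, n = 5, 13 months) were used only to show on which side of the comparison a gene lay, and entered the fit of 5XFAD against Hdac1 cKO in 1 alternative only.

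HDAC1 is a class I histone deacetylase that removes acetyl groups from histones and other proteins and works in corepressor complexes. Nestin-Cre acts in the neural lineage, so microglia, which arise outside it, are left with an intact Hdac1. In 5XFAD mice amyloid plaques build up early and strongly. Microglia around plaques switch from a homeostatic state, marked by genes such as P2ry12 and Tmem119, to a disease-associated state that depends on the receptor TREM2 and its adaptor TYROBP and is marked by Cst7, Clec7a and Itgax. Astrocytes near plaques become reactive and raise intermediate filaments such as GFAP and vimentin. In whole tissue a higher level may come from more cells of a type or from more RNA per cell, and these cannot be told apart here.

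Both groups were sequenced to similar relative depth, judged from the size of the smallest steps between FPKM values, since fragment counts were not used here. Relative to the first control library, depth ranged from 1.5 to 2.35 in Hdac1 cKO (median 1.79) and from 1.08 to 2.22 in 5XFAD libraries (median 1.67). Between 12394 and 12544 genes reached 1 FPKM in each Hdac1 cKO library and between 12604 and 12882 in each 5XFAD library. Across genes, which are not independent replicates, log2(FPKM + 1) values correlated with a Pearson's r of 0.970 to 0.976 between Hdac1 cKO mice, 0.964 to 0.970 between 5XFAD mice and 0.961 to 0.971 between a mouse of each group. The 5XFAD and compound samples were deposited apart from the control and Hdac1 cKO samples. Whether the libraries were made together is not given in the sources used here, so the 5XFAD genotype and any difference between the preparations cannot be told apart. The level of Ttr, which marks choroid plexus, varied widely within both groups, and its values stand with the results it moves with.

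Hdac1 itself separated the models in the direction of the labels. Its values were 3.00, 3.03, 2.62, 2.70 and 2.36 FPKM in the 5 Hdac1 cKO mice, against a lowest, median and highest value of 6.10, 8.74 and 9.64 FPKM in the 5XFAD mice. Every 5XFAD mouse was above every Hdac1 cKO mouse, a difference of 1.29 on the log2(FPKM + 1) scale (standard error 0.13, adjusted p = 3.81e-05 from limma), and an exact permutation test over mice gave p = 0.00216, the smallest that 5 against 6 mice allow. The gene lies at chr4:129193348-129219957 of mm9, on the minus strand. The libraries captured 3′ ends, and which exons the deletion removes is not given in the sources used here. The Hdac1 cKO values may therefore hold RNA of undeleted cells and of the remaining part of a deleted allele. None of the other 10 histone deacetylases tested reached even an unadjusted p under 0.05. Hdac2, the closest paralog, held 12.6 to 18.98 FPKM in Hdac1 cKO and 12.8 to 21.7 FPKM in 5XFAD mice, with a difference of 0.23 (adjusted p = 0.599). Of 25 subunits of the HDAC1 corepressor complexes, 0 reached an adjusted or an unadjusted p under 0.05 by limma, and their median difference was -0.018.

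Thy1, whose promoter drives the transgenes, was the second check of the labels. Thy1 lies at chr9:43851467-43856662 of mm9, on the plus strand, and encodes a surface glycoprotein of neurons. Hdac1 cKO mice held 319.8, 329, 388, 351 and 367 FPKM of Thy1, and 5XFAD mice held at least 1563, with a median of 1768 and a highest value of 2076 FPKM. The groups were far apart, 5.10-fold on the log2(FPKM + 1) scale (difference 2.35, standard error 0.093, adjusted p = 1.35e-09 from limma). Control mice held 303 to 315 FPKM and compound mice 1644 to 2358 FPKM, so the split followed the transgene label in all 20 hippocampal libraries. Whether these reads came from the mouse gene or from the transgenes was not tested. The mouse gene App did not pass the test. It was 202 to 234 FPKM in Hdac1 cKO and 212 to 289 FPKM in 5XFAD mice (difference 0.13, adjusted p = 0.662). Thy1 was the only called gene among the 19 genes of amyloid processing and the transgene that were tested.

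Across the 14302 genes tested, the models differed mostly in 1 direction. At an adjusted p under 0.05, limma called 226 genes (1.58%), of which 215 (1.5%) were higher and 11 (0.0769%) lower in 5XFAD than in Hdac1 cKO mice. The median difference was 1.01 among the higher genes, which ranged from 0.37 to 5.60, and fell by 0.60 at the median among the lower genes, while it was -0.0073 among all genes tested. The 2 groups did not overlap for 193 of the 215 higher and 10 of the 11 lower genes, against 345 of all genes tested (2.41%). The methods of the study name DEG thresholds of p under 0.05 and 1.5-fold or more. With the limma p taken here before adjustment, 444 genes were DEGs (3.1%), 382 higher (2.67%) and 62 lower in 5XFAD (0.434%). Without any adjustment 1541 genes (10.8%) had a p under 0.05. These shares of all genes tested are the ones to set beside the counts of each gene list below. The largest differences without a call belonged mostly to short RNA genes. Of 28 genes with a difference over 3 in size, 23 were entries for microRNAs, snoRNAs or scaRNAs, which were listed at 0 in some mice and at high FPKM in others, and 3 were called, namely Cst7, H2-Ab1 and Ccl3. Mir3064 was at 876 FPKM in Hdac1 cKO mouse 3 and at 0 in the other 4, and at 423 to 2183 FPKM in 5XFAD mice (adjusted p = 0.0826, or 6.25e-06 without Hdac1 cKO mouse 3). Of the 236 such short genes tested, 0 were called by limma and 8 had an unadjusted p under 0.05.

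**Figure D1:**
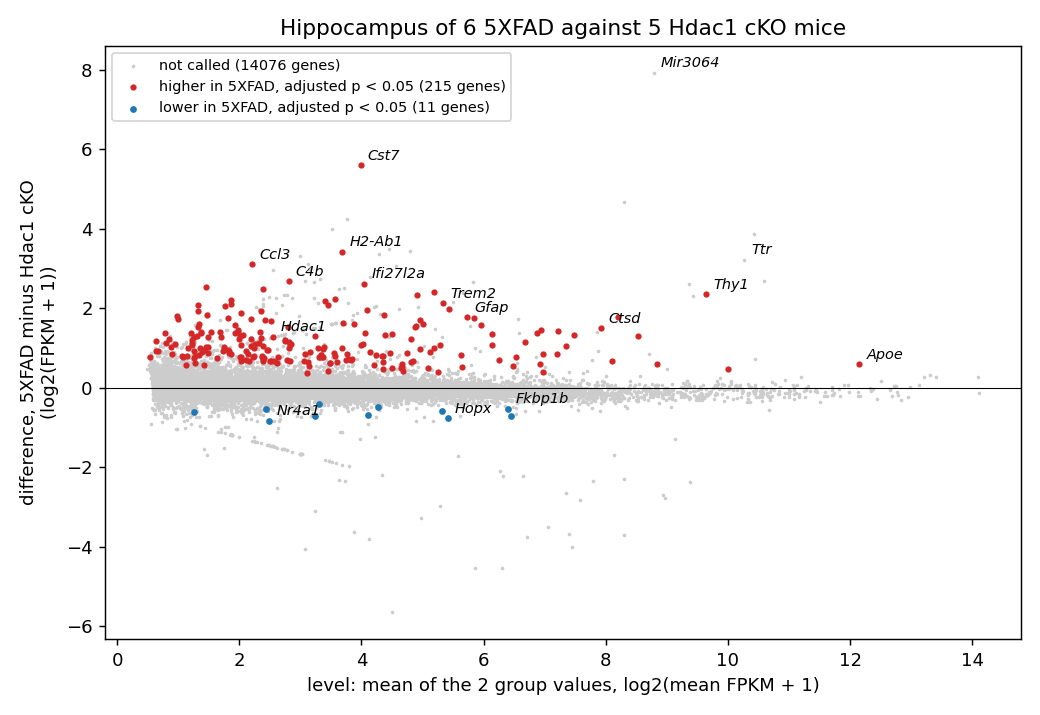
Difference in log2(FPKM + 1) between 6 5XFAD and 5 Hdac1 cKO mice against the level of each of the 14302 genes tested, each point a gene, with the 215 genes called higher in 5XFAD in red and the 11 called lower in blue at an adjusted p under 0.05. Red points reach 5.60 at Cst7, whereas no blue point lies below -0.83.

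Disease-associated microglia genes set the models apart most densely. Of the 30 genes listed, all were tested, 24 were higher in 5XFAD at an adjusted p under 0.05 against 1.5% of all genes, and 0 were lower. Their median difference was 1.20, and 29 of the 30 values were positive. Cst7, which encodes the cysteine protease inhibitor cystatin F and lies at chr2:150396151-150404680 of mm9, had the largest difference of any called gene. It was low in Hdac1 cKO mice, at 0.781, 1.95, 1.09, 0.839 and 1.67 FPKM, and reached 81.9, 103 and 148 FPKM as the lowest, median and highest value in 5XFAD mice. This was 48.5-fold on the log2(FPKM + 1) scale (difference 5.60, standard error 0.18, adjusted p = 2.54e-10 from limma).

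Trem2, the lipid-sensing receptor, was 20.2, 19.8, 17.4, 15.4 and 18.9 FPKM in Hdac1 cKO and 68.5, 81.03 and 103 FPKM at the lowest, median and highest in 5XFAD mice (difference 2.12, standard error 0.13, adjusted p = 1.49e-07). Its signalling adaptor Tyrobp was 129 to 192 FPKM in Hdac1 cKO and 357 to 673 FPKM in 5XFAD mice (difference 1.78, standard error 0.16, adjusted p = 9.28e-06). Neither gene overlapped between the groups. The β-glucan receptor gene Clec7a was low in Hdac1 cKO mice, at 0.197, 0.276, 0.0826, 0 and 0.503 FPKM, and was at 2.60 to 5.63 FPKM in 5XFAD mice (difference 2.08, adjusted p = 6.93e-06). Itgax, encoding the integrin CD11c, was listed at 0 in 3 of the 5 Hdac1 cKO mice and was at most 0.102 FPKM there, and it was 0.616 to 2.23 FPKM in 5XFAD mice (adjusted p = 0.00216). The surface glycoprotein gene Cd52 (8.25 to 19.7 against 55.5 to 105 FPKM, difference 2.41) and the transmembrane glycoprotein gene Gpnmb (0.411 to 1.33 against 2.14 to 9.79 FPKM, difference 1.76) were also called. Spp1, which encodes the secreted phosphoprotein osteopontin, was 1.67, 0.941, 3.24, 0.270 and 2.14 FPKM in Hdac1 cKO and 3.27, 8.82 and 13.9 FPKM in 5XFAD mice, and 5XFAD mouse 3 was only just above the highest Hdac1 cKO mouse (difference 1.93, standard error 0.34, adjusted p = 0.00998). Smaller differences were called for the colony-stimulating factor Csf1 (0.68), the tetraspanin Cd9 (1.07) and the growth factor Igf1 (1.04), and Igf1 overlapped between the groups and reached an adjusted p of 0.077 when single mice were left out (without Hdac1 cKO mouse 3). The lysozyme genes Lyz2 and Lyz1 were higher in 5XFAD by 2.17 and 2.09, but they are near-identical copies, so reads may have been split between them.

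Most genes of homeostatic microglia had a positive difference, and part of them passed the test. Of the 20 tested, 8 were called higher, 0 were called lower, and the median difference was 0.50. There were 18 positive and 2 negative differences, and 14 genes had an unadjusted p under 0.05 by limma. Csf1r, the receptor that microglia need to survive, was 15.7, 14.9, 15.4, 15.3 and 15.4 FPKM in Hdac1 cKO and 24.8, 28.6 and 34.7 FPKM in 5XFAD mice (difference 0.87, standard error 0.10, adjusted p = 7.73e-05), and the fractalkine receptor gene Cx3cr1 was 11.7 to 16.6 and 22.5 to 27.9 FPKM (difference 0.81, adjusted p = 0.000286). The receptor gene Gpr34 (0.67, adjusted p = 0.0611 without Hdac1 cKO mouse 1) was called as well, and Trem2 stood in this list too. In contrast, the purinergic receptor gene P2ry12 was 20.7, 19.7, 19.7, 14.2 and 17.3 FPKM in Hdac1 cKO and 11.9, 16.9 and 20.2 FPKM in 5XFAD mice, with a difference of -0.14 (adjusted p = 0.792). Tmem119 lay at 7.58 to 9.99 and 7.44 to 11.5 FPKM (difference 0.17, adjusted p = 0.667), and the lectin gene Siglech at 8.39 to 14.5 and 12.2 to 18.7 FPKM (difference 0.55, adjusted p = 0.0786, or 0.0138 without Hdac1 cKO mouse 2). The groups overlapped for these 3 genes.

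**Figure D2:**
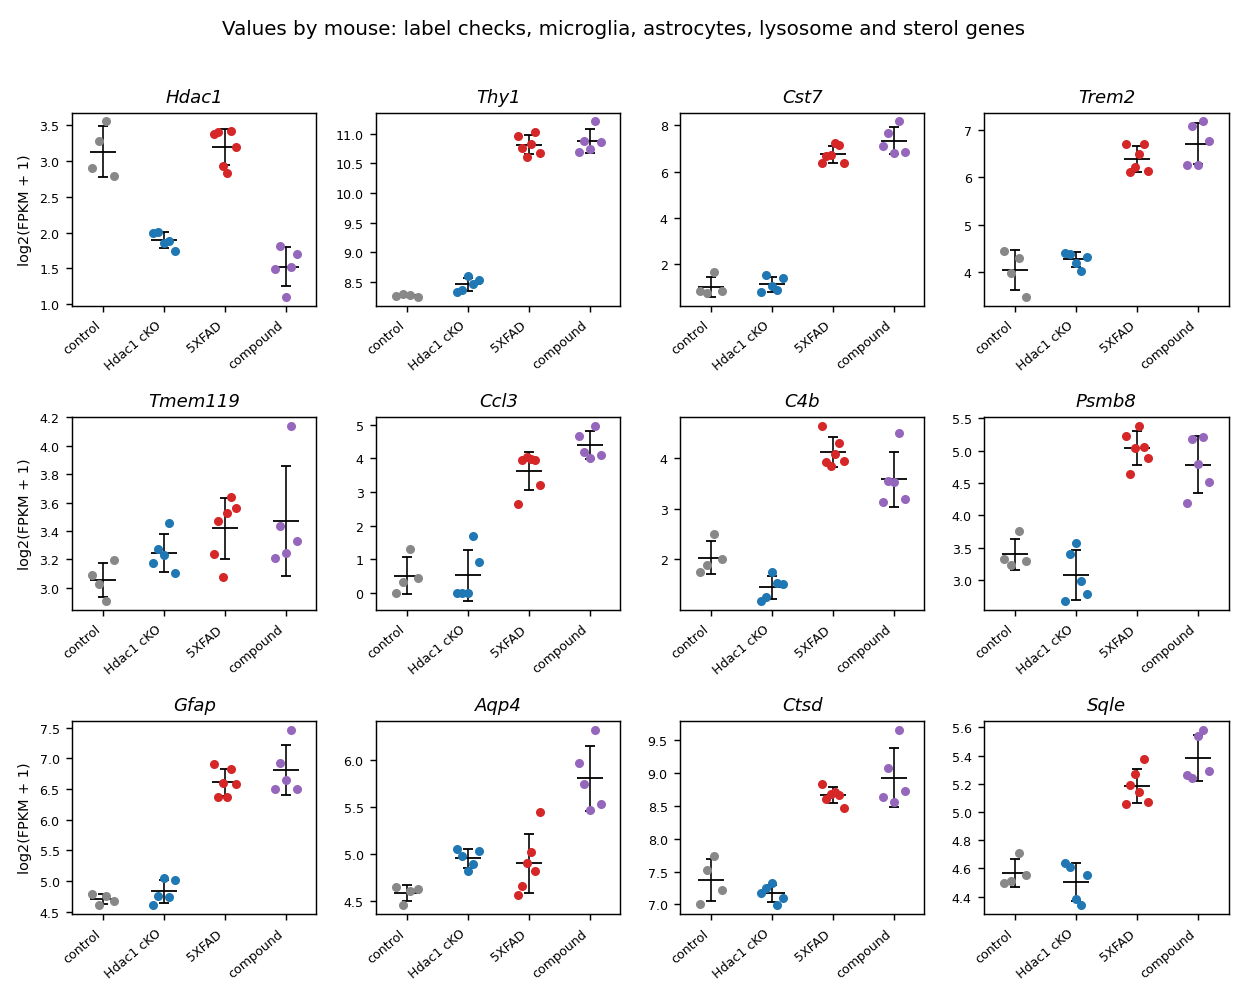
Values by mouse on the log2(FPKM + 1) scale for 12 genes in control (n = 4), Hdac1 cKO (n = 5), 5XFAD (n = 6) and compound mice (n = 5), with points for mice and black marks for the mean ± SD. Hdac1 is low in the 2 groups with Nestin-Cre and Thy1 is high in the 2 groups with the transgenes, while Tmem119 and Aqp4 overlap between Hdac1 cKO and 5XFAD mice.

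Among 18 chemokine ligands tested, 6 were higher in 5XFAD and 0 lower, and 13 of 31 listed fell below the filter on low FPKM. Here and in the other lists the filter used the mean over both groups. A gene near 0 in Hdac1 cKO mice could therefore pass it through the 5XFAD mice alone. With no filter on low FPKM, 6 chemokine ligands were called higher as well. Ccl3 and Ccl4, which encode macrophage inflammatory proteins, were the chemokines with the largest differences among the 6. Ccl3 was listed at 0 in 3 Hdac1 cKO mice and at 2.24 and 0.888 FPKM in the others, and was 5.21, 14.4 and 15.5 FPKM at the lowest, median and highest in 5XFAD mice (difference 3.11, standard error 0.36, adjusted p = 0.000402). Ccl4 was 2.23, 0.836, 1.499, 0.359 and 1.14 FPKM in Hdac1 cKO and 6.75 to 17.4 FPKM in 5XFAD mice (difference 2.48, adjusted p = 2.24e-05). Ccl6, a myeloid chemokine, reached 19.6 to 29.6 FPKM against 2.54 to 6.67 (difference 2.24, adjusted p = 6.93e-06). The neutrophil attractant Cxcl5 (1.88), the interferon-induced T-cell attractant Cxcl10 (1.82) and the membrane-bound ligand Cxcl16 (1.37) completed the 6.

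Complement was the second most densely called list. Of 16 genes tested, 10 were higher in 5XFAD, against 1.5% of all genes, and 0 were lower, with a median difference of 1.09. The 3 chains of C1q, which start the classical cascade, moved together. C1qa was 13.9 to 19.02 FPKM in Hdac1 cKO and 40.3 to 91.3 FPKM in 5XFAD mice (difference 1.71), C1qb 61.7 to 82.03 and 177 to 258 FPKM (difference 1.44) and C1qc 39.1 to 49.6 and 97.6 to 123 FPKM (difference 1.34), and none overlapped. C4b, a C4 component, was 1.26, 1.40, 2.34, 1.90 and 1.86 FPKM in Hdac1 cKO and 13.4, 15.2 and 24.02 FPKM in 5XFAD mice (difference 2.68, standard error 0.15, adjusted p = 1.45e-07). The anaphylatoxin receptor gene C3ar1 (1.27), the C1 inhibitor gene Serping1 (1.40) and clusterin, Clu, a lipoprotein that also limits the terminal complex (0.48), were called. C3 was not (difference 1.15, adjusted p = 0.272): 5XFAD mouse 1 had 9.21 FPKM, whereas the other 5XFAD mice had at most 1.92 and the Hdac1 cKO mice at most 0.736.

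Fc and Toll-like receptors gave 6 calls among 13 genes tested, all higher in 5XFAD, with 7 of the 20 listed below the filter. Fcer1g, the shared γ chain that signals for several Fc receptors, was 77.98 to 102 FPKM in Hdac1 cKO and 179 to 322 FPKM in 5XFAD mice (difference 1.43, adjusted p = 3.48e-05). The IgG receptor genes Fcgr3 (1.38) and Fcgr2b (1.40), the lipopolysaccharide co-receptor gene Cd14 (1.57) and Tlr2 (0.93) were called too. Tlr2 stayed at a low level, at most 0.197 FPKM in Hdac1 cKO and 0.452 to 1.93 FPKM in 5XFAD mice. Spi1, which encodes the myeloid transcription factor PU.1, was 0.436 to 3.03 FPKM in Hdac1 cKO and 3.16 to 8.48 FPKM in 5XFAD mice (difference 1.38, adjusted p = 0.013).

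Antigen presentation genes were higher in 5XFAD in 9 of 19 tested, with 0 lower. B2m, the invariant light chain, was 226, 267, 262, 211 and 198 FPKM in Hdac1 cKO and 513, 551 and 726 FPKM in 5XFAD mice (difference 1.31, standard error 0.11, adjusted p = 7.32e-06), and the heavy chains H2-K1 (1.56) and H2-D1 (1.52) were called, although class I genes share sequence and reads may be split between them. The immunoproteasome subunits Psmb8 (5.40 to 10.9 against 23.99 to 40.9 FPKM, difference 1.96) and Psmb9 (0.545 to 2.85 against 4.82 to 10.9 FPKM, difference 1.72) cut peptides for class I. MHC class II genes, which present peptides to helper T cells, were more uneven. H2-Ab1 was 2.47, 2.51, 2.42, 1.16 and 2.90 FPKM in Hdac1 cKO mice and 141, 31.99, 5.75, 47.8, 23.1 and 46.01 FPKM in 5XFAD mice 1 to 6, so the 5XFAD values spanned more than the gap between the groups (difference 3.43, standard error 0.65, adjusted p = 0.0337). The adjusted p of H2-Ab1 was above 0.05 in 9 of the 11 fits without a mouse and reached 0.106 without Hdac1 cKO mouse 4. Its partner H2-Aa (3.00, adjusted p = 0.106), H2-Eb1 (1.97, adjusted p = 0.251) and the invariant chain Cd74 (1.57, adjusted p = 0.161) did not pass the test, and each was highest in 5XFAD mouse 1 and lowest among 5XFAD mice in mouse 3. Without 5XFAD mouse 3 all 3 were called, with differences of 3.51, 2.45 and 1.88 (adjusted p = 0.00645, 0.00282 and 0.015). Control mouse 3 held 22.3 FPKM of H2-Ab1, within the 5XFAD range, and the compound mice held 4.52 to 8.13 FPKM.

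Interferon response genes were higher in 5XFAD in 10 of 31 tested, 0 were lower, and 30 of the 31 differences were positive with a median of 0.64. Ifi27l2a, an interferon-inducible gene, was 9.37, 5.85, 1.97, 1.89 and 9.99 FPKM in Hdac1 cKO and 17.7, 39.6 and 62.2 FPKM in 5XFAD mice (difference 2.62, standard error 0.51, adjusted p = 0.0337), while the controls held 19.97, 16.1, 73.3 and 53.6 FPKM. Bst2, which encodes the virus-tethering protein tetherin, was 0.724, 3.39, 3.35, 4.38 and 3.71 FPKM in Hdac1 cKO, 5.88 to 13.6 FPKM in 5XFAD and 5.99 to 15.5 FPKM in control mice (difference 1.54, adjusted p = 0.0209). The antiviral membrane protein gene Ifitm3 had 57.5 to 77.1 FPKM in Hdac1 cKO, 132 to 167 in 5XFAD and 94.03 to 219 in control mice (difference 1.15, adjusted p = 9.82e-06). For Oasl2, of the oligoadenylate synthetase-like family, the difference was 1.03. For these 4 of the 10 genes the mean of the controls lay nearer 5XFAD than Hdac1 cKO. On the other side, the GTPase gene Igtp (1.08 to 1.88 in Hdac1 cKO, 2.66 to 8.22 in 5XFAD, 0.797 to 1.92 FPKM in control mice, difference 1.44) and the transcription factor gene Irf8 (difference 1.22) had controls nearer Hdac1 cKO, as had Ifi35 (difference 1.30). Irf7, a central regulator of type I interferon, was not called (difference 0.60, adjusted p = 0.477). With single mice left out, the adjusted p of Ifi27l2a reached 0.0863 (without Hdac1 cKO mouse 4) and that of Bst2 0.0566 (without 5XFAD mouse 1). In the fits with all 4 groups or without moderated variances the list gave 6 calls in place of 10, and without the libraries with over 1000 FPKM of Ttr, which left 2 5XFAD and 4 Hdac1 cKO mice, it gave 3 with a median of 0.60 and 26 of 29 differences positive.

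Promoter sequence is shown for genes of these immune groups because members that moved together could be read for shared letters. RefSeq promoter windows (GRCm38.p6, the 250 bases before the gene start) were matched for 11177 of the 14302 genes tested, and for 167 of the 215 called higher in 5XFAD. The interferon-stimulated response element was searched as 2 copies of GAAA in the same direction with any 2 bases between them, on both strands. It occurred in 17 of the 167 (10.2%) and in 2.99% of all tested genes with a window. Among interferon response genes with a window, called or not, it occurred in 11 of 24 (45.8%). Of these 11, Bst2, Ifit1, Ifit3, Igtp and Irgm1 were called, while Gbp2, Gbp3, Ifitm2, Isg15, Rsad2 and Stat2 were not. A core of the type bound by PU.1, GAGGAAGT on both strands, occurred in 8 of the 167 (4.79%) and in 2.76% of all tested genes with a window. Among genes of the microglia lists called higher in 5XFAD, it occurred in 1 of 23 with a window (4.35%), namely Spp1. These are counts of letters and show no binding. Neither motif was found in the 9 windows matched for genes lower in 5XFAD. The 3 called genes with the largest differences among those holding the response element were Spp1 (chr5:104434861-104435110, plus strand), Cxcl10 (chr5:92348890-92349139, minus strand) and Bst2 (chr8:71537473-71537722, minus strand), printed here 5′ to 3′ with the element in capitals. In Spp1 it is read on the opposite strand, and in Bst2 2 matches overlap.
Spp1: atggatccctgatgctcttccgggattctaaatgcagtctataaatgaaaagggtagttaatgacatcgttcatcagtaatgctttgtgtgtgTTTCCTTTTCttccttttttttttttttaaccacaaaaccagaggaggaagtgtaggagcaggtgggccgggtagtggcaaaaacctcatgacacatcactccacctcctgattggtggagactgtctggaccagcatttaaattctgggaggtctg
Cxcl10: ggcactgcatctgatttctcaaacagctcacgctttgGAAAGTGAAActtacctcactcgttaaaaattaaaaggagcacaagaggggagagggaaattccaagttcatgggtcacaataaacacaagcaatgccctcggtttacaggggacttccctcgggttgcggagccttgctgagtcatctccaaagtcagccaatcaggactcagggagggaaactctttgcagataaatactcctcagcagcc
Bst2: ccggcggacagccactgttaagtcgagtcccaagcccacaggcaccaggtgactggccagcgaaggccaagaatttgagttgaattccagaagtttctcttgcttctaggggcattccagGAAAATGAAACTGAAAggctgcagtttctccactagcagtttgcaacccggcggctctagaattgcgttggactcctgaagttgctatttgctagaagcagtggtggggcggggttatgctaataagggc
The Spp1 window also holds the PU.1-type core. Of the other genes with that core, Bcl2a1b (chr9:89199023-89199272, plus strand), a myeloid survival gene of the Bcl2 family with near-identical copies, and C1qc (chr4:136892915-136893164, minus strand, core on the opposite strand) had the largest differences, and the core is in capitals.
Bcl2a1b: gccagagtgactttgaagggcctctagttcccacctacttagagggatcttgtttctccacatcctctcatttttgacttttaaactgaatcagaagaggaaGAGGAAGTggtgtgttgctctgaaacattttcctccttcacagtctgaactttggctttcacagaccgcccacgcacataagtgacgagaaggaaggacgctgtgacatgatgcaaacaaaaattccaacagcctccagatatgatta
C1qc: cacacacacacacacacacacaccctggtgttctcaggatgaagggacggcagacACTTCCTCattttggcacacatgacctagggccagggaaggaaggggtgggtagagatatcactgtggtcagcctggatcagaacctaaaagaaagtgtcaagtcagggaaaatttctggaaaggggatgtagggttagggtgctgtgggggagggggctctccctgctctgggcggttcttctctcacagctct

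The lists of reactive and of homeostasis genes of astrocytes differed in their calls. Of 30 reactive astrocyte genes tested, 16 were higher in 5XFAD, 0 were lower and the median difference was 0.94, whereas of 20 genes of astrocyte homeostasis 0 were called by limma, 2 had an unadjusted p under 0.05, and their median was 0.022. Of the 16 called, C4b, Serping1, Psmb8, H2-D1, Cxcl10 and Cd14 also stand in the immune lists above. Which cells made their RNA cannot be told from whole tissue. The homeostasis genes ranged from -0.15 for the gap junction gene Gja1 to 0.29 for S100b. Gfap was 23.4, 26.2, 31.96, 25.8 and 31.4 FPKM in Hdac1 cKO and 81.3, 95.2 and 118 FPKM in 5XFAD mice, 3.42-fold apart on the log2(FPKM + 1) scale (difference 1.77, standard error 0.12, adjusted p = 6.02e-07). Vimentin, Vim, was 15.5 to 18.6 against 41.2 to 83.9 FPKM (difference 1.59, adjusted p = 1.74e-05), and the secreted protease inhibitor Serpina3n was 7.15 to 13.4 against 31.6 to 46.9 FPKM (difference 1.82, adjusted p = 3.21e-06). Lipocalin 2, Lcn2, was listed at 0 in 4 of 5 Hdac1 cKO mice and was 0.639 to 5.34 FPKM in 5XFAD mice (adjusted p = 0.00424), and the metalloproteinase inhibitor Timp1 was at most 0.298 against 1.25 to 8.70 FPKM (difference 1.92). Stat3, a transcription factor of the reactive response, was 3.56 to 4.70 against 5.49 to 8.25 FPKM (difference 0.63, adjusted p = 0.0179, or 0.0579 without Hdac1 cKO mouse 3). The water channel gene Aqp4 was 32.2, 30.5, 27.1, 28.7 and 31.7 FPKM in Hdac1 cKO and 22.5 to 42.6 FPKM in 5XFAD mice, so the groups overlapped (difference -0.056, adjusted p = 0.93). Compound mice held 43.2 to 79.2 FPKM of Aqp4 and control mice 20.9 to 23.96, a comparison that shares no mouse with the former (difference 1.23, adjusted p = 0.00317).

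Lysosomal genes were higher in 5XFAD in 15 of 42 tested and lower in 0, with a smaller median difference of 0.42. The aspartic protease Ctsd was 144, 151, 159, 126 and 136 FPKM in Hdac1 cKO and 353, 408 and 455 FPKM in 5XFAD mice (difference 1.49, standard error 0.088, adjusted p = 1.45e-07). Ctsz, a carboxypeptidase, showed the same separation (32.9 to 37.7 against 89.8 to 123 FPKM, difference 1.57), as did the cysteine protease Ctss (1.33), and Ctsb had a smaller difference (0.54). The macrophage lysosomal glycoprotein Cd68 was 14.1 to 24.7 against 55.7 to 112 FPKM (difference 1.98, adjusted p = 2.03e-05), and the membrane protein gene Laptm5 had a difference of 1.36. Npc2, which carries cholesterol inside lysosomes, was 17.4 to 25.3 against 30.5 to 45.5 FPKM (difference 0.65), with controls at 23.2 to 32.8 FPKM.

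Of 27 genes of cholesterol and lipid handling tested, 6 were higher in 5XFAD and 0 lower, with a median difference of 0.30. Without the libraries with over 1000 FPKM of Ttr 3 were called, with a median of 0.16. Apoe, the main lipid carrier of the brain, was 3856, 4345, 4006, 3023 and 3290.2 FPKM in Hdac1 cKO and 4902, 5587 and 6037 FPKM in 5XFAD mice (difference 0.60, standard error 0.10, adjusted p = 0.00537), and lipoprotein lipase, Lpl, was 16.9 to 22.2 against 25.3 to 38.3 FPKM (difference 0.60). Of the sterol synthesis enzymes, Sqle, which makes squalene epoxide, was 23.9, 23.4, 19.9, 19.2 and 22.4 against 32.3, 34.9 and 40.5 FPKM (difference 0.68, standard error 0.092, adjusted p = 0.00059). Fdft1, which makes squalene, had a difference of 0.51 (adjusted p = 0.00954), and the groups overlapped for neither. Apoc4, an apolipoprotein gene next to Apoe, was listed at 0 in all 5 Hdac1 cKO and all 4 control mice and at 0.879 to 12.1 FPKM in 5XFAD mice (adjusted p = 0.0363). The adjusted p of Apoc4 was above 0.05 in 9 of the 11 fits without a mouse, and reached 0.106 without Hdac1 cKO mouse 2.

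Of the 226 called genes, 102 were in a list and 124 in none. Wfdc17, which encodes a small secreted protein of activated macrophages, was 6.13, 13.6, 10.3, 20.4 and 11.8 FPKM in Hdac1 cKO and 37.9, 65.5 and 92.1 FPKM in 5XFAD mice (difference 2.34, standard error 0.28, adjusted p = 0.000668). In the oligodendrocyte list 2 of 20 genes were called, both higher in 5XFAD. Transferrin, Trf, was 82.6 to 103 against 139 to 195 FPKM (difference 0.85, adjusted p = 0.000402). Klk6, a protease of myelinating cells, was 0 to 2.25 against 1.53 to 11.7 FPKM with overlapping groups (difference 2.20, adjusted p = 0.0337, or 0.112 without Hdac1 cKO mouse 4). Glycam1, which encodes a secreted mucin, was 0 to 1.79 against 3.37 to 10.96 FPKM (difference 2.11, adjusted p = 0.00121).

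**Figure D3:**
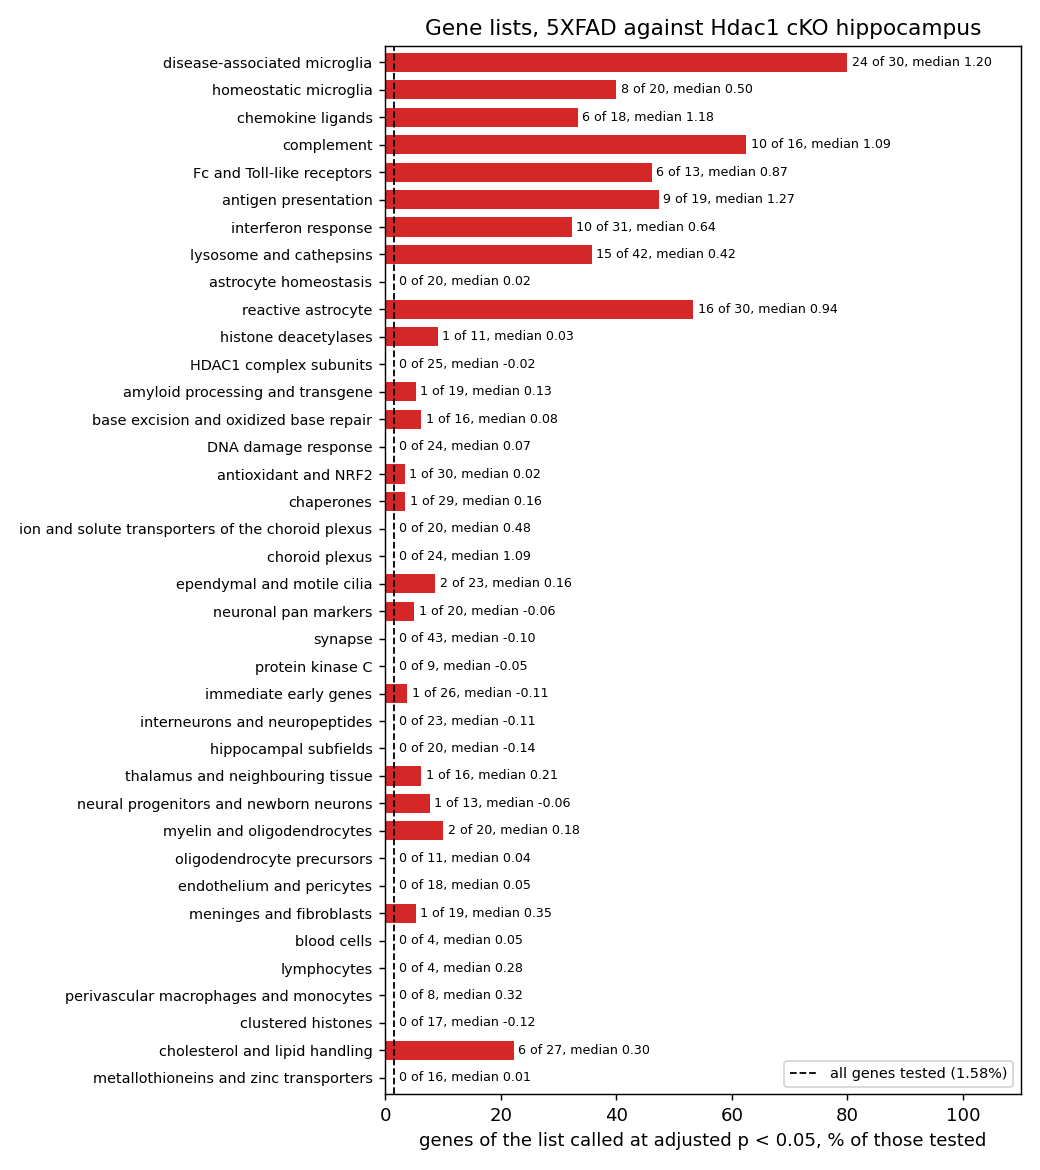
Share of each of 38 gene lists called in either direction at an adjusted p under 0.05 in 5XFAD against Hdac1 cKO mice, as a percentage of the list's genes tested, with the number called, the number tested and the list's median difference in log2(FPKM + 1) beside each bar. The dashed line marks the 1.58% called among all genes tested, and the disease-associated microglia list stands highest at 24 of 30.

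Only 11 genes were lower in 5XFAD than in Hdac1 cKO mice at an adjusted p under 0.05, and 10 of them did not overlap. Nr4a1, an orphan nuclear receptor induced by neuronal activity, was 4.40, 6.98, 8.36, 7.37 and 5.34 FPKM in Hdac1 cKO and 2.00, 3.39 and 4.34 FPKM at the lowest, median and highest in 5XFAD mice (difference -0.83, standard error 0.17, adjusted p = 0.0202). It was the only called gene among 26 immediate early genes tested. Arc, a synaptic regulator, overlapped between 7.58 to 15.4 and 4.89 to 9.59 FPKM (difference -0.45, adjusted p = 0.443), and Fos had a positive difference of 0.28 (adjusted p = 0.671). Hopx, a homeodomain-only protein that marks quiescent neural stem cells and astrocytes of the dentate gyrus, was 67.9, 58.99, 46.9, 55.95 and 42.5 FPKM in Hdac1 cKO and 23.8, 31.7 and 38.8 FPKM in 5XFAD mice (difference -0.77, standard error 0.14, adjusted p = 0.00751). It was the only call among 13 genes of neural progenitors and newborn neurons tested.

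Fkbp1b, an immunophilin that stabilizes ryanodine receptor calcium channels, was 98.7, 111, 108, 98.1 and 86.4 FPKM in Hdac1 cKO and 63.7, 69.3 and 77.7 FPKM in 5XFAD mice (difference -0.53, standard error 0.087, adjusted p = 0.00332). Control mice held 69.1 to 72.8 FPKM and compound mice 84.7 to 106 FPKM, so both groups with Nestin-Cre were above both groups without it, with no overlap. In the comparison of compound with control mice, which shares no mouse with this comparison, it was called in the matching direction (difference 0.41, adjusted p = 0.0477). Cox11, an assembly factor of cytochrome c oxidase, was 13.3, 8.46, 10.1, 12.5 and 10.9 FPKM in Hdac1 cKO and 4.63 to 7.89 FPKM in 5XFAD mice (difference -0.70). Fezf2, a transcription factor of deep-layer projection neurons, was 16.9 to 23.2 against 7.12 to 14.8 FPKM (difference -0.69, adjusted p = 0.0369). It was lowest in 5XFAD mouse 6, at 7.12 FPKM, which also held the highest levels of the thalamic marker Tcf7l2, and the part of this in the result was not tested. Without that mouse the difference was -0.55 (adjusted p = 0.0134). The others were the vitamin E transfer protein gene Ttpa (-0.60), Tmem42 (-0.58), the zinc finger gene Zfp27 (-0.55), the small GTPase gene Rasl11b (-0.50), the peroxisome assembly gene Pex3 (-0.42) and 2900055J20Rik (-0.70), whose groups overlapped. With single mice left out, Hopx and Fkbp1b kept an adjusted p under 0.05 throughout, while the highest adjusted p of the other 9 ranged from 0.052 for Cox11 (without Hdac1 cKO mouse 1) to 0.14 for Pex3 (without Hdac1 cKO mouse 4), with 0.0725 for Nr4a1 (without Hdac1 cKO mouse 3). The adjusted p of Ttpa was above 0.05 in all 11 fits without a mouse. The number of genes lower in 5XFAD was 22 without 5XFAD mouse 3, 7 without 5XFAD mouse 6 and 5, 7 and 6 without Hdac1 cKO mouse 2, 3 and 4.

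Control mice placed each gene nearer to 1 of the models. For 168 of the 215 genes higher in 5XFAD (78.1%) the controls' mean lay nearer Hdac1 cKO, against 50.1% of all genes tested, and for 47 it lay nearer 5XFAD. Among these 47, Lgals3bp, which encodes a galectin-binding glycoprotein, was 9.75, 4.38, 10.1, 5.35 and 8.36 FPKM in Hdac1 cKO, 20.6 to 29.1 FPKM in 5XFAD and 10.6, 20.8, 29.8 and 31.4 FPKM in control mice (difference between 5XFAD and Hdac1 cKO 1.61, standard error 0.18, adjusted p = 9.70e-05). Galectin-3, Lgals3, was 2.77 to 4.55, 7.32 to 10.9 and 1.83, 7.98, 11.8 and 11.9 FPKM in the same order of groups (difference 1.16, adjusted p = 0.000229). Nfe2l2, which encodes NRF2, the master regulator of the antioxidant response, was 8.01, 7.42, 7.41, 8.70 and 8.29 FPKM in Hdac1 cKO, 13.1, 14.6 and 16.2 FPKM in 5XFAD and 12.05, 13.2, 16.01 and 7.57 FPKM in control mice (difference 0.81, standard error 0.092, adjusted p = 0.000117). It was the only call among 30 antioxidant and NRF2 pathway genes tested, whose median difference was 0.021. The small heat shock protein gene Hspb1 was 12.8, 13.1, 15.2, 13.1 and 17.1 FPKM in Hdac1 cKO, 18.7 to 36.99 in 5XFAD and 19.3 to 44.99 in control mice (difference 0.80, adjusted p = 0.0143), and was the only call among 29 chaperones tested. Without control mouse 1 the 47 became 57 and without control mouse 3 they became 42. For 8 of the 11 genes lower in 5XFAD, Nr4a1, Hopx and Fkbp1b included, the controls lay nearer 5XFAD.

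Genes of cilia and of stroma were among the 47 as well. Rsph1 and Tekt1, components of motile cilia, were the 2 calls among 23 ependymal and ciliary genes tested. Tekt1 was 2.03, 1.27, 2.69, 1.77 and 1.19 FPKM in Hdac1 cKO, 2.82, 4.92 and 8.02 FPKM in 5XFAD and 7.36, 9.41, 10.1 and 6.40 FPKM in control mice (difference 1.07, adjusted p = 0.0161), and Rsph1 overlapped, at 5.30 to 9.13 and 8.79 to 16.2 FPKM (difference 0.83). Foxj1, the master regulator of motile cilia, was not called (difference 0.55, adjusted p = 0.357). Smim5, a small membrane protein gene, was 0 to 0.830 FPKM in Hdac1 cKO, 1.08 to 6.14 in 5XFAD and 2.91, 6.65, 11.4 and 12.2 in control mice (difference 1.52, adjusted p = 0.0165), and the heparan sulfatase gene Sulf1 was 0.317 to 0.814, 1.69 to 4.80 and 0.993, 7.98, 11.96 and 7.68 FPKM (difference 1.40, adjusted p = 0.00175). Aebp1, of the meningeal and fibroblast list, had a difference of 0.84 (1 call among 19 tested). In that list 18 differences were positive, 8 genes had an unadjusted p under 0.05 and 7 were DEGs higher in 5XFAD, against 2.67% of all genes, and the median was 0.35. The complement inhibitor gene Cd59a, of the thalamic list, had a difference of 0.78 with overlapping groups (1 call among 16). The adjusted p reached 0.117 for Cd59a without Hdac1 cKO mouse 4, and without Hdac1 cKO mouse 2 it was 0.0531 for Aebp1, 0.0557 for Tekt1 and 0.0557 for Smim5. That of Smim5 reached 0.0579 by limma with another mouse left out. Control mouse 1, which had the lowest Ttr of the controls, was the lowest control for Smim5, Sulf1, Rsph1, Aebp1, Cd59a, Lgals3, Lgals3bp and Hspb1, whereas control mouse 4 was the lowest for Tekt1 and Nfe2l2.

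**Figure D4:**
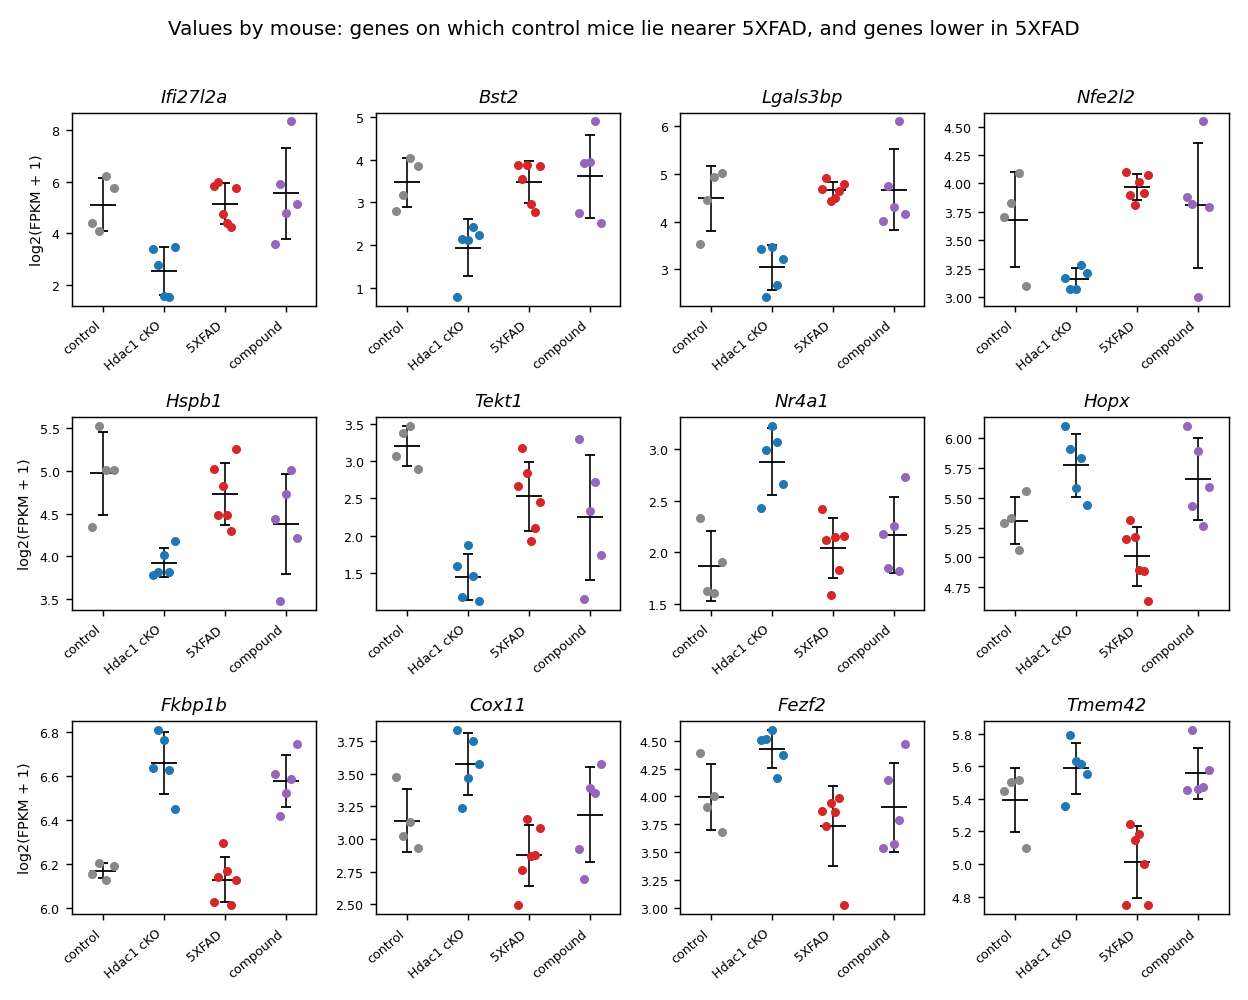
Values by mouse on the log2(FPKM + 1) scale for 6 genes higher in 5XFAD for which control mice lay nearer 5XFAD, and 6 genes lower in 5XFAD, in control (n = 4), Hdac1 cKO (n = 5), 5XFAD (n = 6) and compound mice (n = 5), with points for mice and black marks for the mean ± SD. Fkbp1b is higher in every Hdac1 cKO and compound mouse than in any control or 5XFAD mouse.

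Tissue markers varied within both groups. Ttr, the thyroxine carrier that choroid plexus makes in large amounts, was 106, 72.4, 105, 56.5 and 1608 FPKM in Hdac1 cKO mice 1 to 5, 3058, 7892, 5554, 153, 53.8 and 6617 FPKM in 5XFAD mice 1 to 6 and 576, 17485, 20146 and 12903 FPKM in control mice 1 to 4 (difference between 5XFAD and Hdac1 cKO 3.22, standard error 1.60, adjusted p = 0.516). All 24 choroid plexus genes tested had a positive difference, 13 were DEGs against 3.1% of all genes, 14 had an unadjusted p under 0.05, and 0 were called at an adjusted p under 0.05 by limma. Their median was 1.09, and their summed level ranged from 124 to 1766 FPKM in Hdac1 cKO and from 127 to 8514 FPKM in 5XFAD mice. The filter used the mean over the mice compared, so a gene could pass it through the libraries rich in Ttr alone. Without the libraries with over 1000 FPKM of Ttr, 12 choroid plexus genes were tested, 7 with a positive and 5 with a negative difference. The anti-aging hormone gene Kl (1.57 to 2.33 against 1.26 to 7.30 FPKM, adjusted p = 0.475) and the bicarbonate transporter gene Slc4a5 (0 to 0.875 against 0.0336 to 3.04 FPKM, adjusted p = 0.425) did not pass the test either. Among ion and solute transporters of the choroid plexus 0 of 20 were called by limma, 9 had an unadjusted p under 0.05 and 6 were DEGs, and among all 258 genes tested whose symbols start with Slc 3 were called against 1.58% of all genes, all higher in 5XFAD and named after their values were seen. They were the peptide and histidine carrier gene Slc15a3 (1.40), the macrophage metal ion transporter gene Slc11a1 (0.95) and the organic anion carrier gene Slco2b1 (0.88). The thalamic markers Tcf7l2 (2.47 to 4.08 against 3.20 to 20.3 FPKM, adjusted p = 0.497) and Prkcd, a protein kinase C (6.18 to 10.99 against 6.75 to 28.5 FPKM, adjusted p = 0.515), were highest in 5XFAD mouse 6, at 20.3 and 28.5 FPKM.

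Blood cell, lymphocyte and perivascular macrophage markers gave 0 calls by limma among the 4, 4 and 8 genes tested, with 1, 1 and 0 at an unadjusted p under 0.05, and 13 of the 17 lymphocyte genes in the files, Cd3e, Cd4 and Cd8a among them, fell below the filter.

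Ttr exceeded 1000 FPKM in 4 of the 6 5XFAD mice and 1 of the 5 Hdac1 cKO mice, and the fit was repeated without those 5 libraries, an alternative chosen after the data were seen. It left 2 5XFAD and 4 Hdac1 cKO mice, and 103 genes were called, 92 higher and 11 lower in 5XFAD. Of the 226 genes, 82 were called again, and all 224 that could be tested kept their direction. Among the 11 genes lower in 5XFAD with all mice, only Hopx (adjusted p = 0.0158 by limma) and Fkbp1b (adjusted p = 0.0431) were called again. Disease-associated microglia genes had a median of 1.30 with 16 of 30 called (1.20 and 24 of 30 in all mice). Reactive astrocyte genes had 0.89 with 11 of 30 (0.94 and 16 of 30), and complement genes 1.00 with 7 of 16 (1.09 and 10 of 16). Homeostatic microglia genes had 0.55 with 4 of 20 (0.50 and 8 of 20), Cx3cr1, Csf1r and Trem2 among the 4. Interferon response genes had 0.60 with 3 of 29 (0.64 and 10 of 31), namely Ifitm3, Irf8 and Igtp. Lysosomal genes had 0.33 with 8 of 41 (0.42 and 15 of 42). The choroid plexus median went to 0.16 over the 12 genes still tested, with 7 positive and 5 negative differences. Of the 47 genes with controls nearer 5XFAD, 6 were still called, all 47 kept their direction, and the median ratio of the difference to that in all mice was 0.861. Of the 166 genes tested with controls nearer Hdac1 cKO, 74 were still called, with a median ratio of 1.03. Among the 47, Nfe2l2 stood at 0.82 (adjusted p = 0.0353 by limma) and Ifitm3 at 1.15 (adjusted p = 0.00803). In contrast, Tekt1 went to 0.48 (adjusted p = 0.578), Rsph1 to 0.48 (adjusted p = 0.522) and Smim5 to 0.79 (adjusted p = 0.457). Hspb1 went to 0.53 (adjusted p = 0.199), Sulf1 to 0.90 (adjusted p = 0.171), Bst2 to 1.00 (adjusted p = 0.538) and Ifi27l2a to 1.99 (adjusted p = 0.417).

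**Figure D5:**
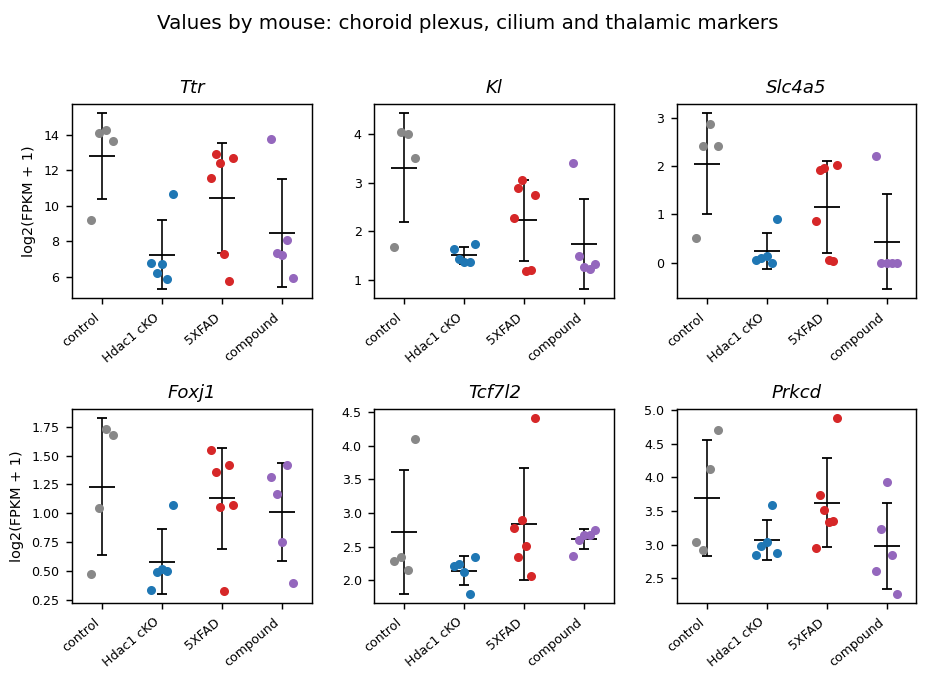
Values by mouse on the log2(FPKM + 1) scale for markers of choroid plexus (Ttr, Kl, Slc4a5), motile cilia (Foxj1) and thalamus (Tcf7l2, Prkcd) in control (n = 4), Hdac1 cKO (n = 5), 5XFAD (n = 6) and compound mice (n = 5), with points for mice and black marks for the mean ± SD. Ttr spans from 53.8 to 7892 FPKM among 5XFAD mice, and Tcf7l2 is highest in 5XFAD mouse 6.

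The study also examined genes of DNA repair and stress. Of 16 genes of base excision and oxidized base repair tested, 1 was called (6.25%, against 1.58% of all genes). Nthl1, a glycosylase for oxidized pyrimidines, was 1.39, 1.09, 3.12, 1.69 and 0.743 FPKM in Hdac1 cKO and 2.50, 4.30 and 4.65 FPKM in 5XFAD mice with overlapping groups (difference 0.92, standard error 0.21, adjusted p = 0.0439, or 0.132 without Hdac1 cKO mouse 2). The 8-oxoguanine glycosylase gene Ogg1 fell below the filter, at 0.304, 0.570, 0.383, 0.613 and 0.584 FPKM in Hdac1 cKO mice and 0.635, 0.460, 0.212, 0.745, 0.370 and 0 FPKM in 5XFAD mice. Of 24 DNA damage response genes, 0 were called by limma, 7 had an unadjusted p under 0.05 and 1, the growth arrest gene Gadd45a, was a DEG (0.60), and the cell cycle inhibitor gene Cdkn1a was 2.52 to 5.97 against 4.34 to 11.3 FPKM (difference 0.54, adjusted p = 0.375). The endoplasmic reticulum chaperone gene Hspa5 (0.18, adjusted p = 0.76), and the glutathione peroxidase genes Gpx3 (0.54, adjusted p = 0.347) and Gpx8 (0.57, adjusted p = 0.761) did not pass the test, nor did any of 9 protein kinase C genes (2 at an unadjusted p under 0.05). The potassium channel subunit gene Kcne3 was listed at 0 in all 4 control mice and at 0.851 to 2.33 FPKM in Hdac1 cKO and 0 to 2.01 FPKM in 5XFAD mice (difference -0.63, adjusted p = 0.424). The little-studied genes 1700026L06Rik (0 to 1.63 against 0.853 to 9.66 FPKM, adjusted p = 0.194, or 0.019 without 5XFAD mouse 4) and LOC100503676 (0 to 1.06 against 0 to 3.68 FPKM, adjusted p = 0.361) overlapped between the models. The histone gene Hist1h4c was listed at 0 in 3 Hdac1 cKO and 4 5XFAD mice, and of 17 clustered histone genes tested 0 were called by limma and 2 had an unadjusted p under 0.05.

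Of 43 synaptic genes 0 were called by limma, 6 had an unadjusted p under 0.05, 32 had a negative difference and the median was -0.10, with a range from -0.38 for the GABA-A receptor subunit Gabra5 to 0.39 for the adhesion gene Nrxn2. Hippocampal subfield markers (20 tested) and interneuron and neuropeptide genes (23 tested) also gave 0 calls by limma and 1 and 4 genes at an unadjusted p under 0.05, with medians of -0.14 and -0.11. The largest difference among the latter was that of the neuropeptide gene Nts, at -0.90 (adjusted p = 0.475) with overlapping groups. The interneuron peptide genes Sst, at 559.9 to 762 FPKM in Hdac1 cKO and 282 to 617 FPKM in 5XFAD mice (difference -0.48, standard error 0.19, adjusted p = 0.369), and Npy, at 306 to 426 and 198 to 354 FPKM (difference -0.45, adjusted p = 0.208), overlapped between the models, as did the enkephalin precursor gene Penk (difference -0.13). Among 20 general neuronal markers the only call was Thy1, whose level followed the transgene label.

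Compound mice against control mice gave a comparison that shares no mouse with the direct one, although it too crosses the separate deposits. Of 14348 genes tested there, limma called 95 (0.662%), 90 higher (0.627%) and 5 lower (0.0348%) in compound mice. Of the 215 genes higher in 5XFAD than in Hdac1 cKO, 214 had a value in it, 195 of them (91.1%) were higher in compound mice, against 48.8% of all genes tested in both, and 71 were called higher. Cst7 was 137, 206, 112, 287 and 115 FPKM in compound and 0.783, 0.715, 2.22 and 0.801 FPKM in control mice (difference 6.29, adjusted p = 1.05e-05). Ccl4 was 21.1 to 39.2 against 0 to 2.74 FPKM (difference 4.36, adjusted p = 0.000609), and Gfap was 88.97 to 176 against 23.5 to 26.6 FPKM (difference 2.10, adjusted p = 0.000224). Hdac1 was the only gene called higher in 5XFAD than in Hdac1 cKO and lower in compound than in control mice, at 1.82, 2.52, 1.15, 1.86 and 2.24 against 6.42, 8.71, 10.7 and 5.91 FPKM (difference -1.60, adjusted p = 0.00266). The number called fell to between 41 and 63 without compound mouse 2 (49) or control mouse 2 (56), 3 (63) or 4 (41).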

How the data were processed

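Hippocampal RNA of 5 Hdac1 cKO and 6 5XFAD mice, with 4 control and 5 compound mice for context, was read from the deposited FPKM tables, 23951 genes per library. The authors prepared 3′ Digital Gene Expression libraries, mapped them to mm9 with Tophat2 and derived the deposited FPKM values in Cufflinks 2.0.0 with UCSC gene models. Scaling to transcript length does not suit libraries that read 3′ ends, and it shifts a gene's level against the filter and the pseudocount. No depth in counts was used, so no interval or detection limit was given.

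Genes whose mean over the mice compared reached 0.5 FPKM were tested on log2(FPKM + 1), pseudocount 1, with limma 3.58.1 in R 4.3.3 (trend and robust moderation, two-sided, Benjamini-Hochberg adjustment over all genes tested). Differences on this scale understate the change of low genes. Single genes were also compared with a two-sided exact permutation test over the 462 arrangements of the mice. Tested on simulated data of the 5XFAD and Hdac1 cKO fit, with 200 of 14302 genes changed by 1.5 on the log2 scale, the fit called 97% of them with 11 false calls. For compound against control mice it called 95% with 9 false calls. The changed genes were drawn only from those above a set mean level, with independent normal noise. Their change was larger than the median of 1.01 among genes called higher in 5XFAD. The recovery of smaller changes and of genes at low level was not tested.

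The comparison and the 38 gene lists were chosen with earlier results of these data known. Genes were named as the 12 largest differences in each direction among called genes whose groups did not overlap, up to 4 called genes of each list, genes that the study and earlier results single out, and up to 6 genes in each direction that also did not overlap between compound and control mice. The remaining names were chosen after their values were seen. Promoters came from RefSeq (GRCm38.p6), with 10537 genes matched on their symbol and 640 on a synonym. Alternatives were a pseudocount of 0.1, no filter or 1 FPKM, quantile normalization, median scaling, unmoderated or plain variances, all 4 groups in 1 fit, a block for the replicate number, the ratio of mean FPKM, each mouse left out, and the libraries with over 1000 FPKM of Ttr left out. Python 3.11.15, numpy 2.4.6, pandas 2.3.3 and matplotlib 3.10.9 were used. A gene may stand in several lists, and some list members are not reported here. Samples of sorted nuclei and of chromatin immunoprecipitation were not used here.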

Additional observations from a re-analysis of the deposited data

Results flagged for a closer look

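Within the groups compared, 130 genes were checked in each for a mouse that stood apart from the rest of its group, and 18 of these 260 checks found one, where chance gives about 1 in 20. Hdac1 cKO mouse 5 stood apart for 5 genes. It was highest for Ttr at 1608 FPKM (others 56.5 to 106), Slc4a5 at 0.875 FPKM (others 0 to 0.104), Foxj1 at 1.1 FPKM (others 0.258 to 0.433) and Lcn2 at 0.201 FPKM (others listed at 0), and lowest for Timp1, listed at 0 (others 0.24 to 0.298). The other Hdac1 cKO mice that stood apart were mouse 1, lowest for Bst2 at 0.724 FPKM (others 3.35 to 4.38), mouse 3, highest for Mir3064 at 876 FPKM (others listed at 0), and mouse 4, lowest for H2-Ab1 at 1.16 FPKM (others 2.42 to 2.9) and highest for Prkcd at 11 FPKM (others 6.18 to 7.26).

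Among 5XFAD mice, mouse 1 was highest for C3 at 9.21 FPKM (others 0.562 to 1.92) and Irf8 at 9.66 FPKM (others 3.38 to 5.04). Mouse 2 was lowest for Hdac2 at 12.8 FPKM (others 18.3 to 21.7) and Fcgr3 at 17.3 FPKM (others 25.4 to 28.7), and highest for Aebp1 at 6.52 FPKM (others 2.62 to 3.74). Mouse 3 was highest for Cd9 at 86.3 FPKM (others 47.1 to 55.2) and Npc2 at 45.5 FPKM (others 30.5 to 34.9). Mouse 6 was lowest for Fezf2 at 7.12 FPKM (others 12.3 to 14.8) and highest for Tcf7l2 at 20.3 FPKM (others 3.2 to 6.44).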

How the results depend on the processing

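All 226 calls kept their direction wherever they could be tested, under every alternative fit and with each mouse left out. The number called ranged from 178 to 238 with a mouse left out, 172 to 201 of them among the 226, and other settings shared between 146 of 159 calls (no moderation of variances) and 223 of 234 (pseudocount 0.1). Without the libraries with over 1000 FPKM of Ttr the number called fell to 103, and the number higher in 5XFAD to 92. With a pseudocount of 0.1 the DEGs numbered 686 in place of 444.

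The genes lower in 5XFAD ranged from 5 to 22 with a mouse left out. The number called in compound against control mice ranged from 41 to 105 in the same way. With the replicate number as a block, which drops 5XFAD mouse 6 and compound mouse 5 for want of a partner, 162 genes were called in 5XFAD against Hdac1 cKO, 151 of them among the 226, with 4 lower in 5XFAD, and 35 in compound against control mice. Mice that shared a number were not treated as paired in the main fit. The correlation of their deviations from the group means was 0.0938, -0.0233, 0.0421, 0.0494 and 0.0467 for numbers 1 to 5. Such values cannot show whether mice with the same number shared a preparation.

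The direction of 5 uncalled gene results turned. Aqp4 ranged from -0.17 (without 5XFAD mouse 6) to 0.012 (without 5XFAD mouse 1) with a mouse left out, and without the libraries with over 1000 FPKM of Ttr Kl was -0.26, Hspa5 -0.28, Gpx8 -0.43 and Fos -0.18. The cause was not tested. The median difference of all genes was -0.027 after quantile normalization and -0.026 after median scaling, against -0.0073 without either. Depth is known only as a ratio between libraries, so no limit of detection could be set for genes listed at 0.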
